A study of Rattus norvegicus with 6 samples.

Results

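The genes described here make up the immunoproteasome and the machinery that loads its peptides onto MHC class I molecules. They are Psmb8, Psmb9 and Psmb10 (catalytic immunosubunits), Psme1 and Psme2 (the PA28 activator), Tap1 and Tap2 (the peptide transporter), Tapbp (tapasin), B2m (the class I light chain) and Nlrc5 (a transactivator of class I genes). They were chosen by gene name, and all 10 names were found once each among the 26981 features of the count table. All 10 also passed the filter on low counts, which kept 16447 features. RNA came from the right knee articular cartilage of male wild-type Sprague-Dawley rats, 6 weeks old at the start, in an experiment of 70 rats in 7 groups. There were 3 libraries from unloaded controls and 3 from rats whose right knee and ankle were compressed along the limb axis under anaesthesia, every 2 days for 4 weeks. Each loading session had 40 cycles of 10 s, with a base force of 5 N lasting 9 s and a peak force of 20 N lasting 0.5 s in each. The loaded libraries' label names excessive load without its size, which is taken from the study design, and the controls carry no treatment label. No label says that each library is a separate rat, so the p-values cover only how these libraries vary, some of which may be technical.

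In all cells a barrel-shaped protease, the 20S proteasome, cuts proteins into peptides, and in immune cells or under interferon its catalytic subunits Psmb5, Psmb6 and Psmb7 are replaced by Psmb8, Psmb9 and Psmb10. The Tap1 and Tap2 proteins pump peptides into the endoplasmic reticulum, where tapasin, calreticulin, calnexin and Pdia3 help load them onto a heavy chain paired with B2m. Most nucleated cells carry class I molecules, immune cells carry the immunosubunits without stimulation, and interferon raises both in many other cells.

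The loaded knees held more transcripts of the loading genes B2m, Tapbp and Tap1 and fewer of the immunosubunits Psmb10 and Psmb9. Tapbp was 1.36-fold and B2m 1.26-fold higher, and Psmb10 stood at 0.648 of its control level. Of the 10 genes 3 rose and 2 fell at a threshold of 0.05 on the adjusted p (edgeR quasi-likelihood, Benjamini-Hochberg). Over all 16447 genes 17.9% rose and 18.0% fell, 35.8% in all, so the share called among the 10 is not far from the background. Their median log2 fold change was -0.06, beside 0.00 over all tested genes. None of the 5 proteasome and activator genes rose, 2 of them fell, and their median was -0.13. Of the 4 loading genes 3 rose and none fell, with a median of 0.28. In TMM-scaled CPM, the loaded libraries lay entirely on 1 side of the controls for 7 of the 10 genes, 3 higher and 4 lower. Of all tested genes 47.9% did so, 23.9% higher and 23.9% lower. This separation depends on the scaling between libraries, and in the authors' FPKM (below) it was absent for Psmb8, Psmb9 and Psme2.

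**Figure D1:**
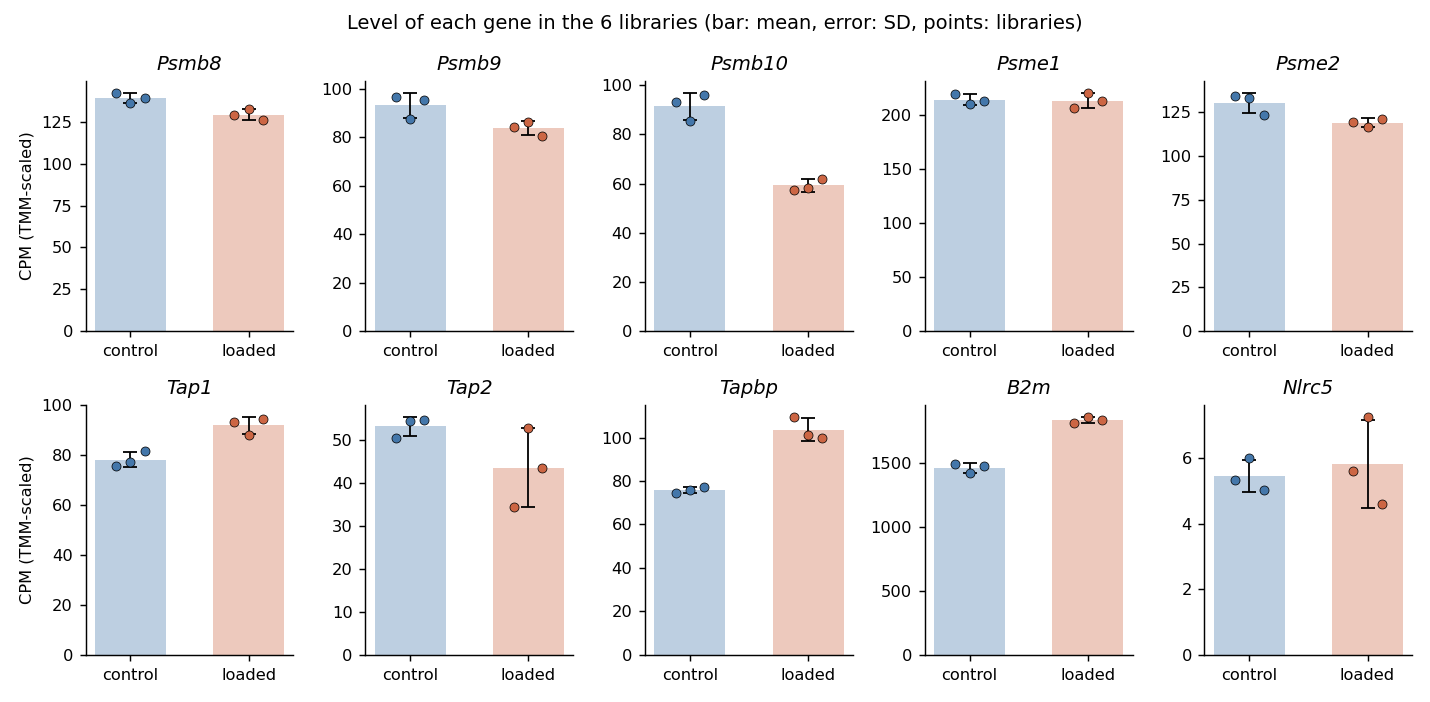
Level of each of the 10 genes in CPM (counts scaled to the library size, TMM-scaled, y axis from 0) in control and loaded libraries, with points for libraries, bars for the mean of 3 and error bars for SD. The loaded points of Tap1, Tapbp and B2m lie above all control points, those of Psmb8, Psmb9, Psmb10 and Psme2 below them, and the loaded points of Tap2 spread from 34.3 to 52.8 CPM.

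**Figure D2:**
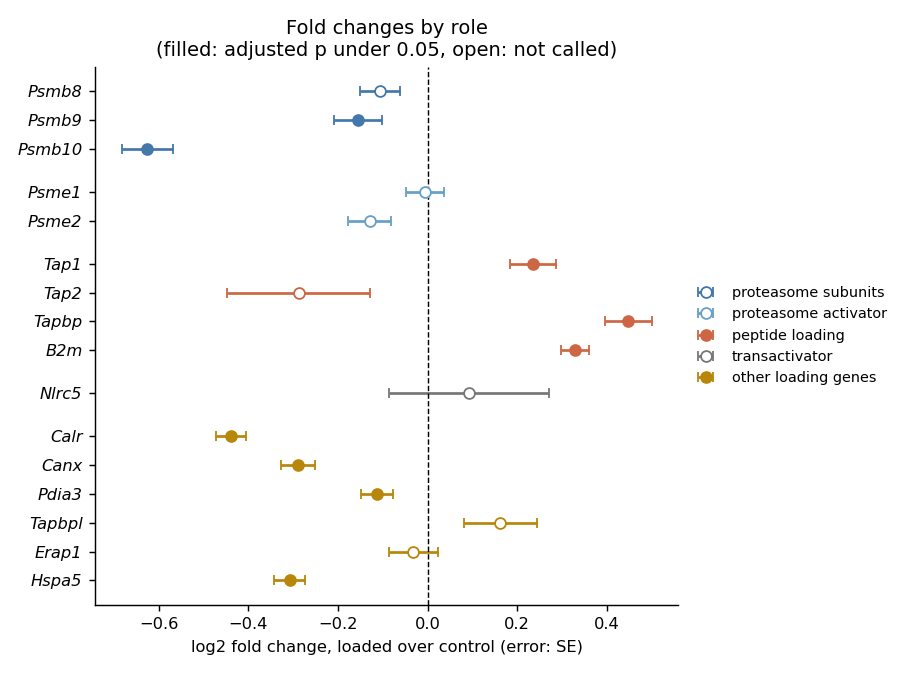
Log2 fold change of loaded over control (x axis) with its standard error for the 10 genes by role and for 6 other loading genes, filled where the adjusted p was under 0.05 and open otherwise. Tap1, Tapbp and B2m lie to the right of 0, whereas Psmb9, Psmb10, Calr, Canx, Pdia3 and Hspa5 lie to the left.

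A promoter element was common to the 3 genes that rose and to Psmb10, 1 of the 2 that fell. The core of the interferon-stimulated response element, which factors of the IRF family bind, was searched as GAAA, any 2 bases and GAAA, on both strands, from 250 bases before to 50 after each gene start, in RefSeq promoters of build GRCr8. It was present in 7 of the 9 members with a promoter entry and in 3.92% of 33469 promoters. It was also in 6 of 10 listed type I interferon effector genes with an entry, in 2 of 10 structural 20S subunit genes and in 0 of the 3 constitutive catalytic subunit genes. The windows below are shown because the element stands in the raised Tap1, Tapbp and B2m, in the lowered Psmb10 and in the uncalled Psmb8, Psme2 and Tap2, next to Ifit3, an interferon effector that rose 2.84 on the log2 scale. They are written 5′ to 3′ on the gene's strand, and capitals mark the core or its reverse complement.
Tap1: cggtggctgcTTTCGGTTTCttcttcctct
Tapbp: gagggaaaatGAAAGTGAAAggaaacagac
B2m: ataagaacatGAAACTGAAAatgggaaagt
Psmb10: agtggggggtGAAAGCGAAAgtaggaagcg
Psmb8: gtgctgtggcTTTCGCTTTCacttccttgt
Psme2: cctggagagtGAAAGCGAAAgctggggctg
Tap2: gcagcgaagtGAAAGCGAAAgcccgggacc
Ifit3: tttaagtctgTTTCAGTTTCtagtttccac
In GRCr8 these windows lie at chr20:4668645-4668674 for Tap1, chr20:4967878-4967907 for Tapbp and chr3:129549170-129549199 (plus strand) for B2m. The others are chr19:50743290-50743319 for Psmb10, chr20:4657016-4657045 for Psmb8, chr15:33052785-33052814 for Psme2, chr20:4652318-4652347 for Tap2 and chr1:241527272-241527301 (plus strand) for Ifit3. All but B2m and Ifit3 are on the minus strand. The letters GAAAGCGAAA are the same in the lowered Psmb10 and in Psme2, Tap2 and, on the other strand, Psmb8. Psmb10 and Tapbp each hold 2 such cores, of which 1 is shown, and in Tapbp they overlap.

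No such core was found in the windows of Psmb9 and Psme1. The gamma-activated site TTCNNNGAA, a motif that reads the same on both strands, was present in 1 of the 9 members, Psmb8, and in 8.87% of all promoters. The NF-kappaB motif, the capitals in the Tap1 window that follows, was searched on both strands and was present in Tap1 and B2m, 2 of the 9, and in 0.111% of all promoters. Tapbp, which had the largest rise, held no match. Of 10 listed type I interferon effector genes with an entry, 0 held the NF-kappaB motif and 2 the gamma-activated site. The NF-kappaB windows of Tap1 and B2m are shown because both genes rose, with the motif or its reverse complement in capitals.
Tap1: gcgggttctcGGGACTTTCCgcgcacgccc
B2m: actgaaaatgGGAAAGTCCCtctgtaacct
These lie at chr20:4668579-4668608 (minus strand) and chr3:129549183-129549212 (plus strand) in GRCr8. Tap1 and Psmb9 are divergent neighbours, and their promoter windows overlap by 44 bases. The interferon element core of Tap1 lies between the starts of these genes, but outside the Psmb9 window. Tap1 rose and Psmb9 fell. A match describes the letters in the window and shows neither binding nor use.

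B2m, the invariant light chain of every class I molecule, was by far the most abundant of the genes. It stood at 1492, 1416 and 1471 CPM in control 1 to 3 and at 1807, 1857 and 1836 CPM in loaded 1 to 3. The groups were well apart, with a log2 fold change of 0.33 ± 0.0312 (SE) and an adjusted p of 1.05e-06 (edgeR). Tapasin, the bridge between the transporter and the heavy chain, showed the largest rise among the 10 genes. Tapbp was at 74.5, 75.7 and 77.4 CPM in the controls and at 109.6, 101.2 and 99.7 CPM in the loaded libraries. All 3 loaded libraries were higher, by 0.45 ± 0.0519 on the log2 scale (adjusted p = 8.09e-06, edgeR).

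The transporter subunits did not move together. Tap1 was at 75.8, 77.2 and 81.6 CPM in the controls and at 93.6, 88.05 and 94.5 CPM under load. It rose by 0.23 ± 0.0519 on the log2 scale, again with no overlap between groups (adjusted p = 0.0024, edgeR). Tap2 was at 50.5, 54.3 and 54.5 CPM in the controls and at 34.3, 52.8 and 43.4 CPM in the loaded libraries. Loaded 1 and loaded 3 were low while loaded 2 lay within the controls, and the change of -0.29 ± 0.159 was not called (adjusted p = 0.23, edgeR). Without loaded 2 the Tap2 change was -0.45 and was called (adjusted p = 0.00371), and without loaded 1 it was -0.14 (adjusted p = 0.2015). DESeq2 called it with all libraries (adjusted p = 0.0325).

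Tap2 is counted in 2 rows of the table. A second row, LOC103689996 (ENSRNOG00000000455), carries the same protein annotation as Tap2 (ENSRNOG00000046031), so that reads of near-identical copies may be split. The second row was at 35.7, 31.1 and 34.2 CPM in the controls and at 47.9, 26.4 and 35.1 CPM under load. Where Tap2 was lowest, in loaded 1, the second row was highest, and its share of both rows' counts there was 58.3%. That share was 36.4% to 41.4% in the controls, 33.3% in loaded 2 and 44.7% in loaded 3. Summed, the rows were at 86.8 ± 1.72 CPM in control and 80.0 ± 1.96 CPM in loaded libraries (SD, n = 3 each). The sums were lower in all 3 loaded libraries, with a change of -0.12 ± 0.0483 that was not called (adjusted p = 0.0742, edgeR). Rat Tap2 is known for allelic forms that differ in the peptides they carry. Which form each library expressed was not tested.

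**Figure D3:**
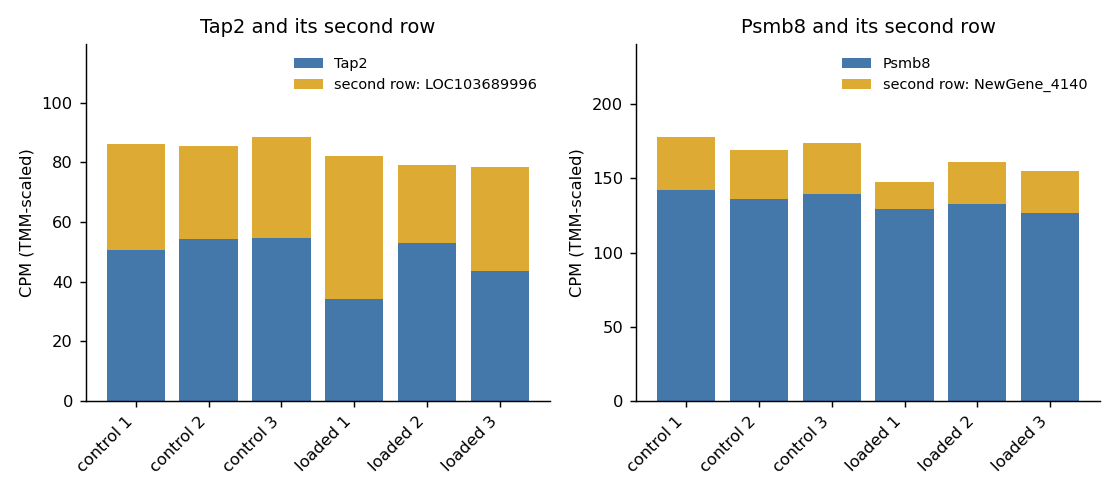
Stacked CPM (TMM-scaled, y axis) of Tap2 and of Psmb8 in each library (x axis), with the second row of the table annotated as the same or a like protein on top. For Tap2 the division between rows differs among the loaded libraries while the stacked height varies only from 78.5 to 88.7 CPM, and for Psmb8 the stacked height is lower in each loaded library.

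Psmb10, the immunosubunit with trypsin-like activity, had the largest change of the 10 genes. It stood at 93.1, 85.3 and 95.8 CPM in the controls and at 57.4, 58.3 and 62.1 CPM in the loaded libraries. The groups were far apart, with a fall of 0.63 ± 0.0572 on the log2 scale (adjusted p = 6.96e-07, edgeR). Psmb9, which replaces Psmb6, was at 96.7, 87.4 and 95.4 CPM in the controls and at 84.0, 86.4 and 80.5 CPM under load. All loaded values were lower, but control 2 and loaded 2 nearly met, and the fall of 0.16 ± 0.0542 was close to the threshold (adjusted p = 0.0367, edgeR). It missed the threshold without control 1 (adjusted p = 0.148), control 3 (0.134), loaded 1 (0.0678) or loaded 3 (0.105). Scaled by library totals alone, the change was -0.08 (adjusted p = 0.292), and with upper-quartile scaling the adjusted p was 0.0549. Psmb8, the chymotrypsin-like immunosubunit, was at 142.3, 136.3 and 139.1 CPM in the controls and at 129.1, 132.6 and 126.3 CPM under load. The loaded libraries were all lower, yet the change of -0.11 ± 0.0452 was not called (adjusted p = 0.0824, edgeR).

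Psmb8 too has a second row. A feature that the authors added as a new gene (NewGene_4140) is annotated as a Psmb8-like protein and was at 35.8, 32.7 and 34.7 CPM in the controls and at 18.6, 28.4 and 28.2 CPM under load. It was lowest in loaded 1, the library with the lowest Tap2. With both rows summed, Psmb8 went from 173.6 ± 4.58 to 154.4 ± 6.66 CPM (SD, n = 3 each), and the change of -0.17 ± 0.0466 was called (adjusted p = 0.0105, edgeR). This sum was chosen after the values were seen.

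The activator subunits Psme1 and Psme2, which form a ring that opens the proteasome, were not called. Psme1 was at 219.5, 209.98 and 212.9 CPM in the controls and at 206.4, 220.3 and 213.2 CPM under load, with overlapping groups and a change of -0.01 ± 0.0427 (adjusted p = 0.939, edgeR). Its sign also turned with other scalings and with libraries left out, and it was not called in any of them. Psme2 was at 134.01, 133.1 and 123.5 CPM in the controls and at 119.5, 116.3 and 121.1 CPM under load. Its loaded libraries were all lower, with a change of -0.13 ± 0.0488 just short of the threshold (adjusted p = 0.0513, edgeR). It was called without control 3 (adjusted p = 0.0361) and with no filter on low counts (adjusted p = 0.0426).

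Nlrc5, the class I transactivator, was the least abundant, with 159 to 207 counts per library. It stood at 5.32, 5.99 and 5.04 CPM in the controls and at 5.59, 7.26 and 4.61 CPM under load. The groups overlapped, and the change of 0.09 ± 0.179 was not called (adjusted p = 0.735, edgeR). Without loaded 2 its sign turned (-0.10, adjusted p = 0.715). The 3 genes whose log2 CPM over the 6 libraries was most like that of Nlrc5, of 10578 other genes with a mean of at least 5 CPM, were Rnaset2 (Pearson r = 0.985), Ephb4 (0.977) and Snw1 (0.976). For B2m they were a new-gene feature without a symbol (NewGene_7153) and Prg2 and LOC100363502, each at r = 0.999 or above. With B2m, 1001 genes had an r of at least 0.95. These values rest on 6 libraries that share the control and loaded groups, and are a description.

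Levels per transcript length, as the authors' FPKM, set the genes in order. In the controls B2m was at 730 ± 6.47 FPKM (SD, n = 3), followed by Psme1 at 196 ± 3.24, Psmb8 at 119 ± 1.53, Psmb9 at 92.7 ± 3.1, Psme2 at 88.9 ± 5.13 and Psmb10 at 83.8 ± 3.27. Tapbp was at 40.2 ± 1.09, Tap1 at 24.4 ± 0.905, Tap2 at 17.6 ± 0.979 and Nlrc5 at 0.866 ± 0.0975. Psmb9, Psme2 and Psmb10 were neighbours whose control values overlapped, and the others were separate. Under load Psmb10 (57.9 ± 3.09 FPKM) came down to overlap with Tapbp (58.8 ± 4.26 FPKM), which had come up. B2m was then at 976 ± 15.6 FPKM. FPKM was not rescaled between libraries, and on that scale Psmb8 was at 119 ± 1.63 FPKM under load. In FPKM the groups overlapped for Psmb8, Psmb9 and Psme2, which were lower in every loaded library in CPM. Psme1, whose groups overlapped in CPM, was at 192 to 198 FPKM in the controls and 205 to 210 FPKM under load.

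A ratio of 2 genes within a library does not depend on scaling between libraries, and it set each immunosubunit beside the subunit it replaces. Psmb10 made up 32.3%, 32.4% and 33.1% of Psmb10 plus Psmb7 in control 1 to 3 and 26.2%, 24.7% and 26.6% in loaded 1 to 3, in FPKM. All loaded libraries were lower, and the log2 ratio differed by -0.48, against SDs of 0.0302 and 0.0741 within the groups. Psmb8 made up 43.7% ± 1.27 of its pair with Psmb5 in control and 43.0% ± 1.43 in loaded libraries. Psmb9 made up 41.8% ± 1.02 and 42.6% ± 2.47 of its pair with Psmb6 (SD, n = 3 each). In both pairs, with these rows, the groups overlapped and the difference was smaller than the spread between libraries. With the second Psmb8 row added, the Psmb8 share was 51.9%, 53.7% and 51.7% in the controls and 50.08%, 50.05% and 49.90% under load. All loaded libraries were then lower, by 0.14 in the log2 ratio, so whether this pair differs rests on that row. With 3 against 3 the smallest two-sided p of an exact permutation test is 0.1, so no p is given. Tap1 over Tap2, a ratio added after the values were seen, was 1.41, 1.34 and 1.41 in the controls and 2.58, 1.57 and 2.06 under load, and it shares the uncertainty of the second Tap2 row. With that row added to Tap2 it was 0.784, 0.811 and 0.823 in the controls and 0.999, 1.003 and 1.07 under load, higher in all 3 loaded libraries. Psme1 over Psme2, also added later, was 2.20 ± 0.0976 and 2.40 ± 0.118.

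**Figure D4:**
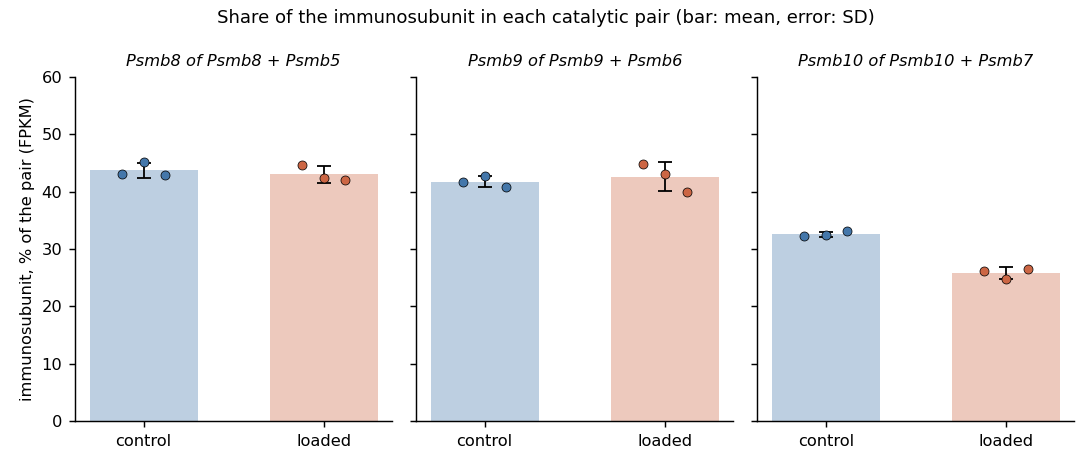
Share of the immunosubunit in each catalytic pair, in percent of the pair's FPKM (y axis from 0), in control and loaded libraries, with points for libraries, bars for the mean of 3 and error bars for SD. The Psmb10 share is 32.3% to 33.1% in the controls and 24.7% to 26.6% under load, while the groups overlap for Psmb9 and for Psmb8 without its second row.

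Some subunits of the constitutive proteasome were lower and others were not called (values in CPM are means ± SD, n = 3 each, and those on the log2 scale have their SE). Of its 3 catalytic subunits Psmb6 and Psmb7 fell, by 0.21 ± 0.0731 and 0.15 ± 0.0510 on the log2 scale (adjusted p = 0.0438 and 0.0358, edgeR), calls that were lost in 7 and 6 of 15 alternatives. Psmb5 was at 147.0 ± 9.95 and 141.3 ± 9.13 CPM and was not called (adjusted p = 0.502). Of 11 structural 20S subunits 7 fell and 1 rose, with a median of -0.19. Among them Psma2 went from 139.7 ± 5.61 to 105.6 ± 3.57 CPM, Psma5 from 94.3 ± 1.41 to 73.2 ± 1.73 CPM and Psmb1 from 295.1 ± 9.03 to 252.7 ± 11.6 CPM. The one that rose, Psma3, which the table names Psma3l, went from 149.1 ± 2.84 to 177.5 ± 2.59 CPM. None of 8 assembly chaperones, other activators and inhibitors was called.

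The chaperones that hold class I molecules for loading went the other way from tapasin. Calreticulin (Calr) fell from 865.9 ± 16.2 to 638.5 ± 6.89 CPM (adjusted p = 9.03e-08, edgeR). Calnexin (Canx) fell from 520.6 ± 7.5 to 426.0 ± 14.7 CPM, the general chaperone Hspa5 from 567.5 ± 9.22 to 458.4 ± 5.66 CPM and the oxidoreductase Pdia3 from 485.2 ± 6.83 to 448.4 ± 9.4 CPM. The Pdia3 call (adjusted p = 0.0227) was lost in 6 of 15 alternatives. The tapasin relative Tapbpl was at 24.2 ± 0.569 and 27.1 ± 2.4 CPM and the trimming peptidase Erap1 at 55.5 ± 0.976 and 54.3 ± 2.87 CPM (adjusted p = 0.142 and 0.699). Of the 6 genes on this list 4 fell and none rose.

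Of 6 peptidases that trim or destroy proteasome products 3 fell and none rose. Lap3 fell by 0.24 ± 0.0539, Npepps by 0.19 ± 0.0567 and Thop1 by 0.34 ± 0.0962 on the log2 scale. Npepps and Thop1 lost their calls in 3 and 2 of 15 alternatives. Tpp2 and Blmh changed by 0.10 ± 0.0635 and -0.08 ± 0.0499, and Lnpep, at 1.27 ± 0.259 and 1.22 ± 0.158 CPM, by -0.06 ± 0.325 (adjusted p = 0.246, 0.213 and 0.911, edgeR).

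Class I heavy chains, the partners of B2m, were mostly higher. Of 14 tested RT1 genes 9 rose and 1 fell, with a median of 0.44. RT1-S3 rose from 118.4 ± 5.4 to 222.0 ± 7.42 CPM, RT1-T24-3 from 44.0 ± 2.06 to 81.7 ± 1.62 CPM, RT1-N3 from 33.6 ± 2.62 to 54.6 ± 0.769 CPM and RT1-T24-4 from 79.5 ± 5.56 to 116.7 ± 3.03 CPM. RT1-CE7 fell from 29.2 ± 0.725 to 22.6 ± 3.29 CPM. Some RT1 genes are close copies of one another, and their reads may be divided differently between libraries. Which rows this affects was not tested, so each single value is uncertain.

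**Figure D5:**
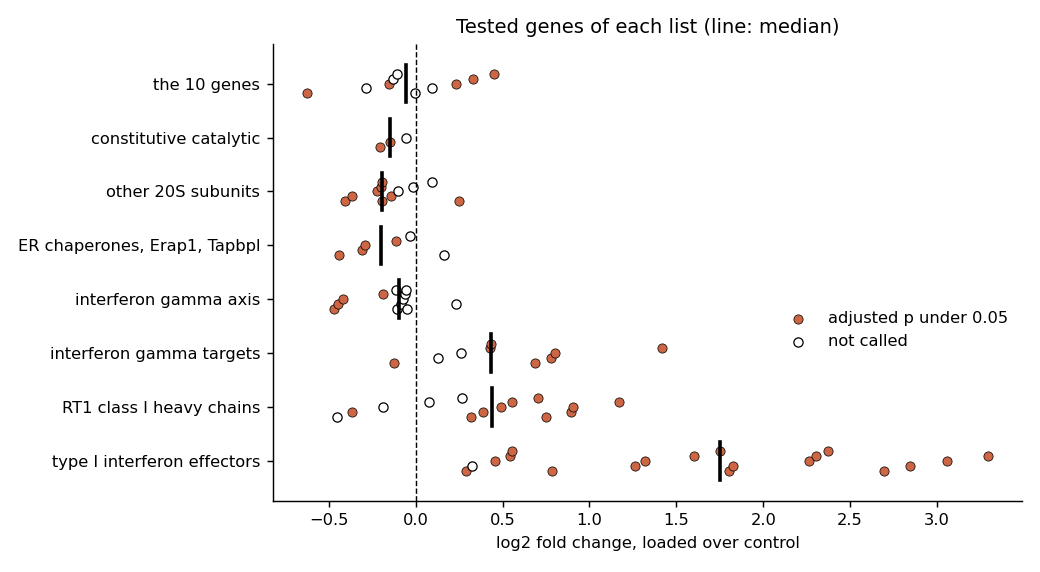
Log2 fold change of loaded over control (x axis) of every tested gene in the 10-gene set and in 7 other lists, with a line at each list's median, filled where the adjusted p was under 0.05. The median of the 10 genes is -0.06, that of RT1 class I heavy chains 0.44 and that of type I interferon effectors 1.75.

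The pathway known to induce these genes was examined alongside. Ifng, the interferon gamma gene, had 0 counts in all 6 libraries, which at these depths allows up to 0.0744 to 0.106 CPM by counting error alone. Of 12 tested genes of the interferon gamma axis 4 fell and none rose. The receptor chain Ifngr1 fell from 194.6 ± 5.03 to 145.8 ± 5.64 CPM, the kinase Jak1 from 106.1 ± 3.37 to 76.8 ± 2.1 CPM and the myeloid factor Irf8 from 109.8 ± 3.46 to 80.6 ± 4.04 CPM. Irf1, which drives several of the 10 genes, fell from 53.3 ± 3.2 to 46.8 ± 1.53 CPM (adjusted p = 0.0242, edgeR), a call lost in 6 of 15 alternatives. Ciita, the class II counterpart of Nlrc5, was at 3.31 ± 0.79 and 3.13 ± 0.219 CPM (adjusted p = 0.802).

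Other targets of interferon were mostly higher. Of 9 tested genes known for induction by interferon gamma 6 rose and 1 fell, with a median of 0.44. The guanylate-binding protein gene Gbp2 went from 38.6 ± 3.37 to 52.1 ± 3.54 CPM, and the immunity-related GTPase genes Irgm and Igtp from 9.52 ± 0.295 to 16.6 ± 1.41 CPM and from 15.0 ± 0.249 to 20.3 ± 2.00 CPM. The chemokine gene Cxcl9 rose from 1.33 ± 0.245 to 3.57 ± 0.272 CPM and Cxcl10 from 1.56 ± 0.227 to 2.68 ± 0.207 CPM. Fcgr1a fell by 0.13 ± 0.0463 (adjusted p = 0.044), a call lost in 11 of 15 alternatives, and the adhesion gene Icam1 was at 11.4 ± 0.52 and 12.5 ± 1.37 CPM (adjusted p = 0.422, edgeR). Of 19 type I interferon effectors 18 rose and none fell, with a median of 1.75. Ifit1 and Ifit3, which bind viral RNA or its partners, Rtp4 and the transcription factor Irf7 rose by 3.30 ± 0.0514, 2.84 ± 0.0478, 3.06 ± 0.0750 and 2.31 ± 0.0469. The fold changes of B2m, Tapbp and Tap1, 0.23 to 0.45, lie below those of most of these effectors. The difference between the lists was not tested.

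The libraries held 28435307 to 40332904 counts and mixed several tissues. Markers of cartilage were present in all libraries, at a summed 1585 to 1672 CPM in control and 2307 to 2415 CPM under load (5 of 10 rose, 1 fell). Summed neutrophil markers were at 45657.5 to 50234 CPM and 31595.5 to 38203 CPM (1 of 10 tested rose, 8 fell), and monocyte and macrophage markers at 15423.5 to 15870 CPM and 11342.5 to 11534 CPM (3 of 10 rose, 5 fell). Lyz2 alone carried the lower monocyte and macrophage sum, and the other 9 markers were at 586 to 609 CPM in control and 654 to 676 CPM under load. T and NK cell markers were at 422 to 441 CPM and 253 to 283 CPM (0 of 12 rose, 2 fell), B cell markers at 240 to 246 CPM and 282 to 293 CPM (2 of 9 rose, 1 fell), and dendritic cell markers at 150 to 157 CPM and 149 to 155 CPM (0 of 7 called). The lower T and NK sum was that of Nkg7, which went from a mean of 379 to 214 CPM, and without it the other 12 markers were at 50.3 to 53.0 CPM and 48.3 to 55.2 CPM. Erythroid markers were at 136976 to 153507 CPM and 122611 to 136610 CPM (0 of 7 rose, 3 fell). Endothelial markers were at 136 to 145 CPM and 122 to 134 CPM (1 of 6 rose, 3 fell). Skeletal muscle markers were at 5956 to 6070 CPM and 14394 to 14936 CPM (7 of 7 rose). Osteoblast markers were at 2392 to 2461 CPM and 5047 to 5276 CPM (6 of 8 rose, 1 fell). Col1a1 led the osteoblast sum, and the other 7 markers were at 885 to 925 CPM and 1255 to 1342 CPM. Among these, Alpl fell from a mean of 229.3 to 128.0 CPM, and Runx2 was not called. No matched marker of these lists was at 0 in every library. Fewer cells of a type and less RNA per cell cannot be told apart in such bulk samples. The part of these mixtures in the falls of Psmb10 and Psmb9 and in the rises of B2m, Tapbp and Tap1 was not tested.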

How the data were processed

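Per the labels' protocols, RNA was isolated with TRIzol and 1 µg per sample entered mRNA library preparation. The deposited table holds a raw count for each gene and library, per the file headers, and its values are whole. It also holds FPKM values that the authors computed per library, per the file headers. The submitters' processing notes name HISAT2, DESeq2 and the mouse build mm10, although the table's gene identifiers are rat Ensembl identifiers. The sources used here do not give the counter, annotation release or strand setting, so reads of overlapping antisense genes cannot be told apart.

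Of 26991 lines, 10 spilled pieces of annotation were dropped. The test was run in edgeR 4.0.16 (R 4.3.3): filterByExpr on group, TMM scaling (factors 0.961 to 1.05), a robust quasi-likelihood test without a replicate block over 16447 genes, and a threshold of 0.05 on the Benjamini-Hochberg adjusted p. CPM rests on TMM-scaled totals, and an SE is the size of the log2 change over the root of its F statistic. FPKM served to order levels between genes and for ratios within a library. The pipeline was tested on simulated counts, in which far fewer genes changed than were called here. Of 50 genes changed 1.25-fold it recovered 8%, and of 50 each changed 1.5, 2 and 4-fold 70%, 78% and 100%. It called 20 of 15978 unchanged genes. A gene that was not called may therefore still have changed by a small amount. Alternatives were DESeq2 1.42.0, limma-voom (limma 3.58.1), other scalings and filters, each library left out, and summed copy rows, the last chosen after seeing the data.

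The members and the 19 other gene lists were chosen with earlier results of these data known. Named genes are the 10 members, every tested gene of lists of up to 6 genes, and of longer lists the 4 called genes with the smallest adjusted p plus those called against the majority. Irf1, Ciita, Cxcl10, Icam1 and Ifng were named whatever their result, and 1 further gene of that rule is not reported here. Of 193 listed symbols 180 matched a row, 2 through an older symbol in a RefSeq table of GRCr8. Promoters are from RefSeq, GRCr8.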

Additional observations from a re-analysis of the deposited data

How the results depend on the processing

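Psmb10, Tap1, Tapbp and B2m kept their direction and their call in all 15 alternatives, with log2 fold changes of -0.68 to -0.55, 0.21 to 0.31, 0.41 to 0.52 and 0.30 to 0.40. The number of the 10 genes that fell was 2, and it was 1 with upper-quartile scaling, library totals or a threshold of 0.01. It was 3 with DESeq2, with no filter on low counts or with the copy rows summed. At a threshold of 0.1 it was 4, and it was 1 to 3 when single libraries were left out. Psme1 was near 0 and turned sign with upper-quartile scaling (0.0062), library totals (0.069), the filter of 1 CPM in 3 libraries (0.0041), and without control 1 or loaded 1 (-0.030 to 0.018 over single libraries left out). Nlrc5 turned without loaded 2 (-0.096 to 0.233). With library totals Erap1 (0.042), Lnpep (0.012) and Psmb5 (0.017) also turned, as did Lnpep without control 3 or loaded 1 (-0.177 to 0.112) and Ciita without control 3 (-0.256 to 0.087). None of these 6 genes was called in any setting. The log2 ratio difference of Psmb8 over Psmb5 turned without control 2 (-0.090 to 0.00046) and was -0.14 with the copy rows summed, that of Psmb9 over Psmb6 without loaded 1 (-0.014 to 0.130), and that of Psmb10 over Psmb7 ranged from -0.50 to -0.43. Library totals moved the median of all genes from 0.00 to 0.08, and 63.3% of calls were then rises, against 49.9%. The replicate numbers did not pair the samples (correlations of deviations -0.0139, 0.0462 and 0.0207), and a fit with a replicate block called 5349 genes against 5895; of the 10 genes it called 5, with Tap2 (adjusted p = 0.0334) in place of Psmb9 (0.0669). Without a known strand setting or a separation of copies, the Tap2, Psmb8 and RT1 values have limits that depth does not remove.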
